A study of Mus musculus with 4 samples.

Results

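The genes described here encode the enzymes of sterol synthesis, the isoprenoid enzymes that draw on the same pathway, and the SREBP2 system that senses and corrects cellular sterol. They were chosen by symbol, from the function of their products, with earlier results of these data known. The list does not hold every gene of the pathway. Of 31 genes named, 28 had a probe set with exactly 1 gene symbol on the array, out of 19938 such genes in all. Acat2, Pdss1 and Mbtps2 had none and were not analysed here. Idi1 and Fdft1 had 2 probe sets each, so the one with the higher mean stands for the gene and the other is given beside it.

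Cells build cholesterol from acetyl-CoA through mevalonate, farnesyl diphosphate, squalene and lanosterol. The transcription factor SREBP2 is held in the endoplasmic reticulum by SCAP and INSIG proteins while sterol is plentiful. When sterol runs low, SCAP carries it to the Golgi, where the site-1 and site-2 proteases release the part that enters the nucleus and activates most genes of the pathway. Sterol derivatives activate LXR receptors, which induce export genes such as Abca1 and Abcg1. Dividing lymphocytes need this supply for new membranes.

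Expression was measured on Affymetrix mouse gene arrays in DN4 thymocytes, the immature stage after CD44 and CD25 are lost and before CD4 and CD8 appear. The Cre+ group (mice 129 and 135) carried floxed Ikzf1 alleles (Ikf/f) and the tamoxifen-activated recombinase CreERT2 in the Rosa26 locus, and the Cre- group (mice 131 and 137) carried the floxed alleles alone. Ikzf1 encodes Ikaros, a DNA-binding regulator of lymphocyte development. Tamoxifen was given to Cre+ and Cre- mice alike, once a day on 4 days at 50 mg/kg, and cells were taken 24 h later. Each mouse has 1 array. Ages and strain are not given in the labels. The treatment label words all 4 mice as carrying CreERT2, so the groups rest on the titles and the design text. Rosa26 is active in most cell types, so the recombinase was not restricted to thymocytes, and deletion in other cells was not measured here. The Cre- mice lacked the recombinase itself, so an effect of active Cre and an effect of Ikaros loss cannot be told apart. Tamoxifen is itself known to bind the sterol isomerase encoded by Ebp, and no mouse went without it.

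Values are log2 RMA values, and a difference is Cre+ minus Cre- with limma's moderated standard error (SE). Precision is bounded by having 2 mice per group. Ikzf1 was at 12.06 and 11.99 in Cre+ mice and at 12.07 and 12.11 in Cre- mice. Where its probes lie relative to the floxed exons was not analysed here, so this does not measure the deletion. Per the design text, a western blot showed that Ikaros protein was lost in the sorted Cre+ cells. The female transcript Xist was at 12.51 in Cre+ mouse 129 and 12.34 in Cre- mouse 131, against 5.29 in Cre+ mouse 135 and 4.93 in Cre- mouse 137, so each group held 1 female and 1 male. Transcripts that the DN4 gate is meant to leave out were measured too. Il2ra, which encodes CD25, was at 11.07 and 10.71 in Cre+ mice and at 11.58 and 10.96 in Cre- mice. Cd8b1 was at 11.50 and 11.59 in Cre+ mice and at 11.72 and 11.91 in Cre- mice. Surface protein was not measured on the arrays.

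**Figure D1:**
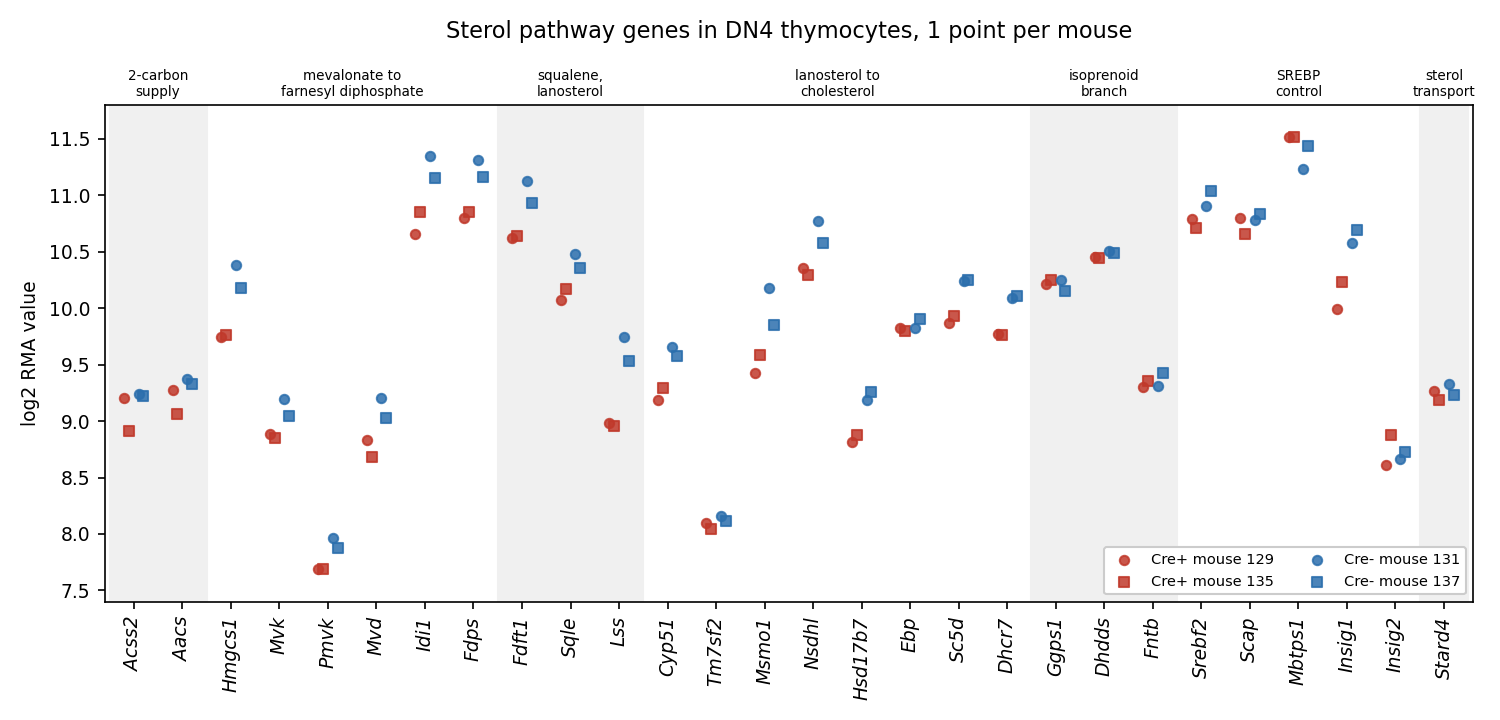
Log2 RMA values of the 28 measured genes, 1 point per mouse, in pathway order along the x axis; red marks the Cre+ mice and blue the Cre- mice, and shaded bands mark the stages. From Hmgcs1 to Dhcr7 the red points lie under the blue ones except at Ebp, with Tm7sf2 close together.

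The enzymes that carry carbon from HMG-CoA to cholesterol had lower values in Cre+ cells at nearly every step. All 17 measured enzymes from Hmgcs1 to Dhcr7 had a lower mean, with a median difference of -0.36 (1.28-fold lower) and a range of -0.67 to -0.06. In 16 of the 17 both Cre+ mice lay below both Cre- mice. Over the whole list of 28 genes, 25 had a lower mean and the median difference was -0.27, beside -0.01 over all 19938 genes, of which 54.1% had a lower mean. Both Cre+ mice lay below both Cre- mice for 21 of the 28 genes, against 20.3% of all genes, and above them for 1, against 16.1%. In 16 of the 28, against 6.08% of all genes, both Cre+ mice lay below both Cre- mice by more than the gap between the mice of either group. In sorted cells measured in bulk, fewer cells that make a transcript and less transcript per cell cannot be told apart.

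No gene passed the test over all probe sets. With limma and adjustment over all 35556 probe sets, 0 of the 28 genes had an adjusted p under 0.05, as did 0% of all probe sets. At an unadjusted p under 0.05, 16 of the 28 were lower, against 2.74% of all genes, and 0 were higher, against 4.12%. A second test, chosen with earlier results of these data known, kept to the 21789 probe sets with 1 gene symbol, hereafter the restricted test. In it 6 of the 28 passed as lower (Hmgcs1, Idi1, Fdps, Fdft1, Lss and Insig1), against 0.296% of all genes, and 0 as higher, against 0.953%. Without mouse 129 the restricted test called 1 of the 28, Lss (limma, adjusted p = 0.0347), and the other 5 of the 6 had adjusted p-values between 0.0553 and 0.11. It called 5 without mouse 135 and 5 without mouse 131, and Fdft1 was the one of the 6 lost each time. Without mouse 137 it called 8, with Insig1 lost and Msmo1, Nsdhl and, as higher, Mbtps1 added. With sex, as read from Xist, as a block, it called 9, the same 6 with Msmo1, Nsdhl and Sc5d, while the fit over all probe sets still called 0.

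**Figure D2:**
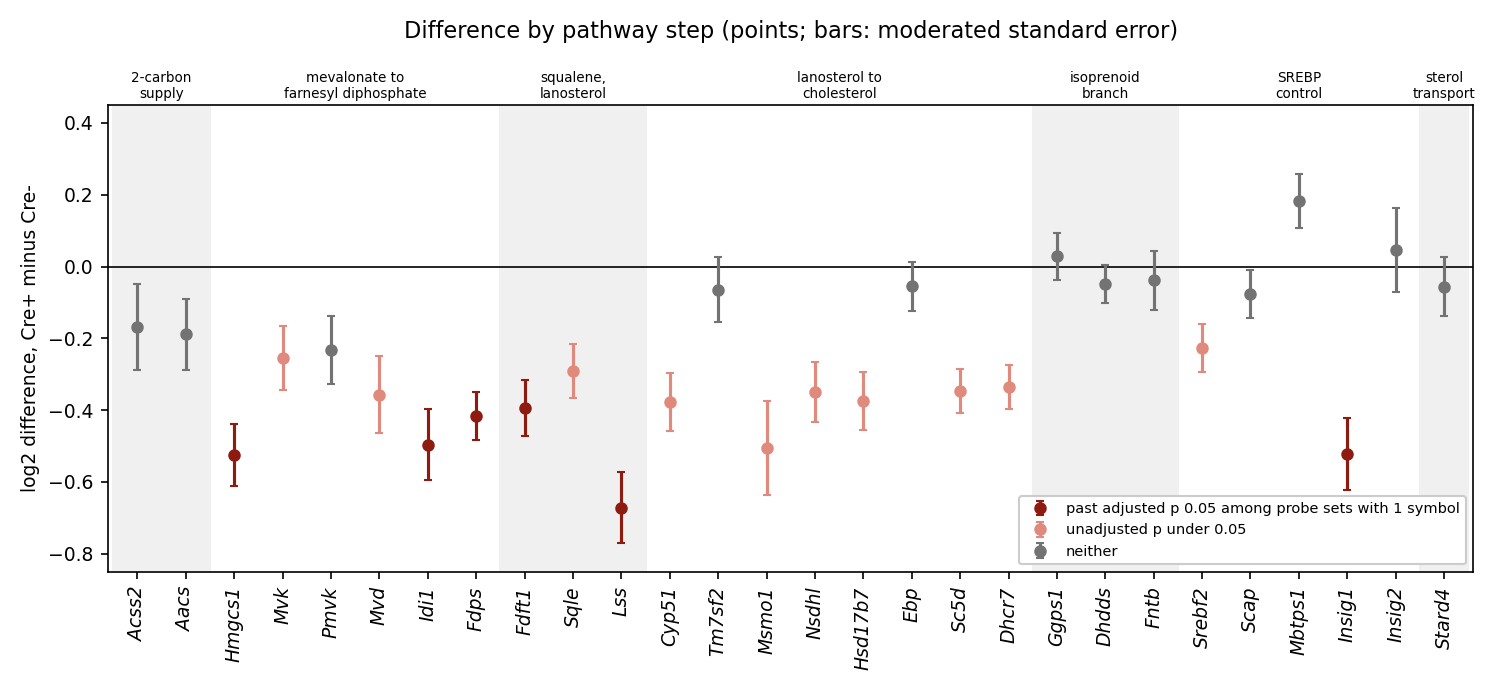
Log2 difference, Cre+ minus Cre-, for each gene in pathway order, with bars for limma's moderated standard error; dark red marks genes past the restricted test, light red those at an unadjusted p under 0.05 and grey the rest. The sterol enzymes lie between -0.67 and -0.06, while the isoprenoid branch lies between -0.05 and 0.03.

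The first stage runs from acetyl units to farnesyl diphosphate, the branch point for sterols and isoprenoids. Hmgcs1, which condenses acetyl-CoA with acetoacetyl-CoA into HMG-CoA, was at 9.75 and 9.76 in Cre+ mice and at 10.38 and 10.18 in Cre- mice. The groups were 0.42 apart at their closest, while the Cre+ mice differed by 0.02 from each other. Its difference was -0.52 (SE 0.09, 1.44-fold lower), which passed the restricted test (limma, adjusted p = 0.0252). Mvk, the mevalonate kinase gene, was at 8.88 and 8.85 in Cre+ mice and at 9.19 and 9.05 in Cre- mice. Pmvk, which adds the second phosphate, was at 7.69 in both Cre+ mice and at 7.97 and 7.87 in Cre- mice. Neither overlapped between groups, and the differences were -0.25 (SE 0.09) for Mvk and -0.23 (SE 0.10) for Pmvk, with Pmvk just past an unadjusted p of 0.05 in limma (0.0576). Mvd, whose product decarboxylates mevalonate diphosphate to isopentenyl diphosphate, was at 8.83 and 8.69 in Cre+ mice and at 9.21 and 9.02 in Cre- mice, a difference of -0.36 (SE 0.11).

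Idi1 and Fdps complete that stage. Idi1 encodes the isomerase that supplies dimethylallyl diphosphate, and Fdps joins these 5-carbon units into farnesyl diphosphate. Idi1 was at 10.65 and 10.85 in Cre+ mice and at 11.35 and 11.15 in Cre- mice, a difference of -0.50 (SE 0.10), which passed the restricted test (limma, adjusted p = 0.0378). Its other probe set differed by -0.42 (SE 0.10) and did not pass (limma, adjusted p = 0.0795). Fdps was at 10.80 and 10.85 in Cre+ mice and at 11.31 and 11.17 in Cre- mice. The lowest Cre- value was 0.32 above the highest Cre+ value, and the difference of -0.42 (SE 0.07) passed the restricted test (limma, adjusted p = 0.022). Mouse 131 had the highest value of the 4 mice for each of the 6 genes of this stage.

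The promoters of Hmgcs1 and Idi1 are shown because both genes passed the restricted test and act before farnesyl diphosphate. Each line gives the 250 bases before the annotated start, from RefSeq (GRCm38.p6), read 5′ to 3′ in the direction of the gene. Hmgcs1 lies on the plus strand at chr13:119690101-119690350 and Idi1 on the plus strand at chr13:8885356-8885605. Capitals mark the core of the sterol regulatory element, TCACNCCAC, and the NF-Y box, CCAAT, which reads ATTGG where it lies on the other strand.
Hmgcs1: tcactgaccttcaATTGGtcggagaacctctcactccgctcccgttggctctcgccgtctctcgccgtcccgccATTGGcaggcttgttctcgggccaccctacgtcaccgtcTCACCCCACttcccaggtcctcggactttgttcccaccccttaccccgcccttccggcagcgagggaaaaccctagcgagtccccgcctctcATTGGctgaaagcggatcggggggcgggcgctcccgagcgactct
Idi1: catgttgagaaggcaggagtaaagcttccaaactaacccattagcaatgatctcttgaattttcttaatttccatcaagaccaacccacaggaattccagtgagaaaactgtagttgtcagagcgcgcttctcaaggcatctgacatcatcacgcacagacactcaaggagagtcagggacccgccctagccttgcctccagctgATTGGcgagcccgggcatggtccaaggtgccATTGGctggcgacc
The Hmgcs1 promoter held 1 sterol element core, from -137 to -129 of the start, and in these 250 bases 3 NF-Y boxes. The Idi1 promoter held NF-Y boxes at -45 to -41 and at -14 to -10, and no match to the sterol element core in the window searched.

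Squalene and lanosterol synthesis held the largest difference of the list. Lss, which encodes lanosterol synthase, the enzyme that closes the sterol rings, was at 8.98 and 8.96 in Cre+ mice and at 9.75 and 9.54 in Cre- mice. The groups stood 0.55 apart at their closest, and the mean difference was -0.67 (SE 0.10, 1.59-fold lower). Of all 19938 genes 25 had a lower difference, and Lss passed the restricted test (limma, adjusted p = 0.0155). Fdft1, whose product squalene synthase commits farnesyl diphosphate to sterols, was at 10.62 and 10.64 in Cre+ mice and at 11.12 and 10.93 in Cre- mice. Its probe sets differed by -0.39 (SE 0.08) and -0.41 (SE 0.08), and both passed the restricted test (limma, adjusted p = 0.0463 and 0.0473). Sqle, the squalene epoxidase gene and a known control point of the pathway, was at 10.07 and 10.17 in Cre+ mice and at 10.48 and 10.35 in Cre- mice. The groups did not overlap, and the difference was -0.29 (SE 0.07) without passing the restricted test (limma, adjusted p = 0.136).

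The Lss promoter is shown as that of the gene with the largest difference, on the plus strand at chr10:76531355-76531604 of the same build, with the same marks.
Lss: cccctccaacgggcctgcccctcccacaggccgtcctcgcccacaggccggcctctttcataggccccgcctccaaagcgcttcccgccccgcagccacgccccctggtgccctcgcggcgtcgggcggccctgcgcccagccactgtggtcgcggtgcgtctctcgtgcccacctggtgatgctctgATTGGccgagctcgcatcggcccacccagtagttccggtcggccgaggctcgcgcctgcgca
It held 1 NF-Y box, at -62 to -58, and no sterol element core.

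From lanosterol on, 8 enzymes remodel the ring system into cholesterol. Cyp51, the lanosterol demethylase gene, was at 9.18 and 9.29 in Cre+ mice and at 9.66 and 9.57 in Cre- mice, a difference of -0.38 (SE 0.08). Msmo1, Nsdhl and Hsd17b7 encode the enzymes that take off the methyl groups at carbon 4 of the sterol. Msmo1 was at 9.42 and 9.59 in Cre+ mice and at 10.17 and 9.85 in Cre- mice, a difference of -0.51 (SE 0.13). Mouse 131 was the highest for Msmo1, and the Cre- mice differed from each other by 0.33, more than the 0.26 between the groups. Nsdhl was at 10.36 and 10.30 in Cre+ mice and at 10.77 and 10.58 in Cre- mice, a difference of -0.35 (SE 0.08). Hsd17b7 was at 8.82 and 8.88 in Cre+ mice and at 9.19 and 9.26 in Cre- mice, a difference of -0.37 (SE 0.08). In all 4 of these genes both Cre+ mice lay below both Cre- mice.

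Sc5d and Dhcr7 act in the last steps. Sc5d, the sterol desaturase gene, was at 9.87 and 9.93 in Cre+ mice and at 10.24 and 10.25 in Cre- mice. Dhcr7, whose product reduces the last ring double bond on 1 route to cholesterol, was at 9.77 and 9.76 in Cre+ mice and at 10.09 and 10.11 in Cre- mice. The mice of a group differed by at most 0.06 for Sc5d and 0.02 for Dhcr7, against gaps between the groups of 0.31 and 0.32. The differences were -0.35 (SE 0.06) for Sc5d and -0.33 (SE 0.06) for Dhcr7, and neither passed the restricted test (limma, adjusted p = 0.0551 for Sc5d and adjusted p = 0.0642 for Dhcr7). Ebp and Tm7sf2 departed from their neighbours in size. Ebp, the sterol isomerase gene, was at 9.82 and 9.80 in Cre+ mice and at 9.82 and 9.91 in Cre- mice, a difference of -0.06 (SE 0.07). Tm7sf2, which encodes a reductase that acts just after Cyp51, was at 8.10 and 8.04 in Cre+ mice and at 8.16 and 8.11 in Cre- mice, a difference of -0.07 (SE 0.09). Of this stage, 6 of the 8 genes were lower at an unadjusted p under 0.05 in limma, and 0 passed the restricted test.

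In the isoprenoid branch the 3 measured genes lay within 0.05 of 0 and none had an unadjusted p under 0.05 in limma. Ggps1, which makes geranylgeranyl diphosphate for protein prenylation, was at 10.21 and 10.25 in Cre+ mice and at 10.25 and 10.15 in Cre- mice, a difference of 0.03 (SE 0.06). Dhdds, a subunit of the enzyme that builds dolichol chains for glycosylation, was at 10.45 in both Cre+ mice and at 10.51 and 10.49 in Cre- mice, a difference of -0.05 (SE 0.05). Fntb, the beta subunit of farnesyltransferase, was at 9.30 and 9.36 in Cre+ mice and at 9.31 and 9.43 in Cre- mice, a difference of -0.04 (SE 0.08). The groups overlapped for Ggps1 and Fntb. Whether this branch differs from the sterol enzymes was not tested. Of 11 further genes for enzymes that use or handle isoprenoids, 0 passed either test or had an unadjusted p under 0.05 in limma, and the median was -0.03. The smallest p-values among them belonged to Rabggtb, a subunit gene of the enzyme that prenylates Rab proteins (-0.18, SE 0.09, or -0.11 without mouse 137), the dolichol synthesis gene Nus1 (-0.07, SE 0.05) and the ubiquinone synthesis gene Coq2 (-0.08, SE 0.07).

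Acss2 and Aacs feed 2-carbon and 4-carbon units into the pathway from acetate and from the ketone body acetoacetate. Acss2 was at 9.21 and 8.91 in Cre+ mice and at 9.24 and 9.22 in Cre- mice. Aacs was at 9.27 and 9.06 in Cre+ mice and at 9.38 and 9.33 in Cre- mice. For both genes mouse 135 was the low one and mouse 129 lay close to the Cre- mice. The difference of -0.17 (SE 0.12) for Acss2 was -0.02 without mouse 135 and -0.32 without mouse 129. That of -0.19 (SE 0.10) for Aacs was -0.08 without mouse 135 and -0.29 without mouse 129.

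Of 5 measured genes of the SREBP2 control system, 2 were lower at an unadjusted p under 0.05 in limma and 1 passed the restricted test. Insig1, the retention factor whose own gene is induced by SREBP2, was at 9.99 and 10.23 in Cre+ mice and at 10.58 and 10.69 in Cre- mice. The groups were 0.35 apart at their closest, and the difference of -0.52 (SE 0.10, 1.44-fold lower) passed the restricted test (limma, adjusted p = 0.0358). Insig2, a related retention factor that is not induced in that way, was at 8.61 and 8.87 in Cre+ mice and at 8.67 and 8.73 in Cre- mice. The Insig2 groups overlapped, and the difference was 0.05 (SE 0.12), or -0.087 without mouse 135. Srebf2, the gene of SREBP2 itself, was at 10.79 and 10.71 in Cre+ mice and at 10.91 and 11.04 in Cre- mice, a difference of -0.23 (SE 0.07) that did not pass the restricted test (limma, adjusted p = 0.208).

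The transport and cleavage steps had smaller differences, of either sign. Scap, the escort and sterol sensor, was at 10.80 and 10.66 in Cre+ mice and at 10.78 and 10.83 in Cre- mice, a difference of -0.08 (SE 0.07), or -0.14 without mouse 129 and -0.0095 without mouse 135. Mbtps1, which encodes the site-1 protease, was the 1 gene of the list with both Cre+ mice above both Cre- mice, at 11.52 in each of the Cre+ mice against 11.23 and 11.44 in Cre- mice. Its difference of 0.18 (SE 0.08) did not pass the restricted test (limma, adjusted p = 0.399) and was 0.08 without mouse 131 and 0.29 without mouse 137. Stard4, a cytosolic sterol carrier, was at 9.26 and 9.18 in Cre+ mice and at 9.33 and 9.23 in Cre- mice, a difference of -0.06 (SE 0.08) with overlapping groups. Among ubiquitin ligases that act on proteins of the sterol system in the endoplasmic reticulum, 0 of 3 measured genes passed either test. Rnf139 differed by 0.07 (SE 0.08), Rnf145 by 0.13 (SE 0.13) and Syvn1 by 0.05 (SE 0.13), and the signs of Rnf145 and Syvn1 turned without mouse 131 (-0.054 and -0.10).

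The Insig1 promoter is printed as that of the SREBP2 system's gene past the restricted test, on the plus strand at chr5:28071162-28071411 of GRCm38.p6, with capitals as before.
Insig1: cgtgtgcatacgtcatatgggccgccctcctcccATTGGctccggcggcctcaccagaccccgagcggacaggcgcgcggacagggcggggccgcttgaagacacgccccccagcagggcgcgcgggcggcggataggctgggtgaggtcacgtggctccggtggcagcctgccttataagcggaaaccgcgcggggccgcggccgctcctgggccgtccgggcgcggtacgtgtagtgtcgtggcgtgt
It held 1 NF-Y box, at -216 to -212, and no sterol element core.

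Promoter letters were then compared over the list. Of the 28 measured genes, 24 had an entry in the RefSeq promoter table, as windows of 250 bases before to 50 bases after each annotated start, both strands searched, and a gene with several starts was counted if any window matched. Fdft1, Fdps, Sqle and Stard4 had none. None of the motifs searched contains another. CCAAT was found in 13 of the 13 genes that were lower at an unadjusted p under 0.05 and had an entry, and in 7 of the other 11. The same motif was in 41.1% of all genes of the table and in 43.3% of those whose array value lay above the median of all genes, as it did for the 28. GGGCGG, the box of Sp1, was in 13 of the 13 and 8 of the 11, but also in 70.4% of the genes above the median. TCACNCCAC was in Hmgcs1 alone, against 1.34% of the genes above the median. The E box CACGTG was in 4 of the 13 and 2 of the 11, against 12.4%. TGGGAA, a core of Ikaros binding sites, was in 4 of the 13 and 3 of the 11, against 25.5%. A match is a string of letters and does not show that a factor binds there, and a site outside these windows or with other letters would be missed.

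**Figure D3:**
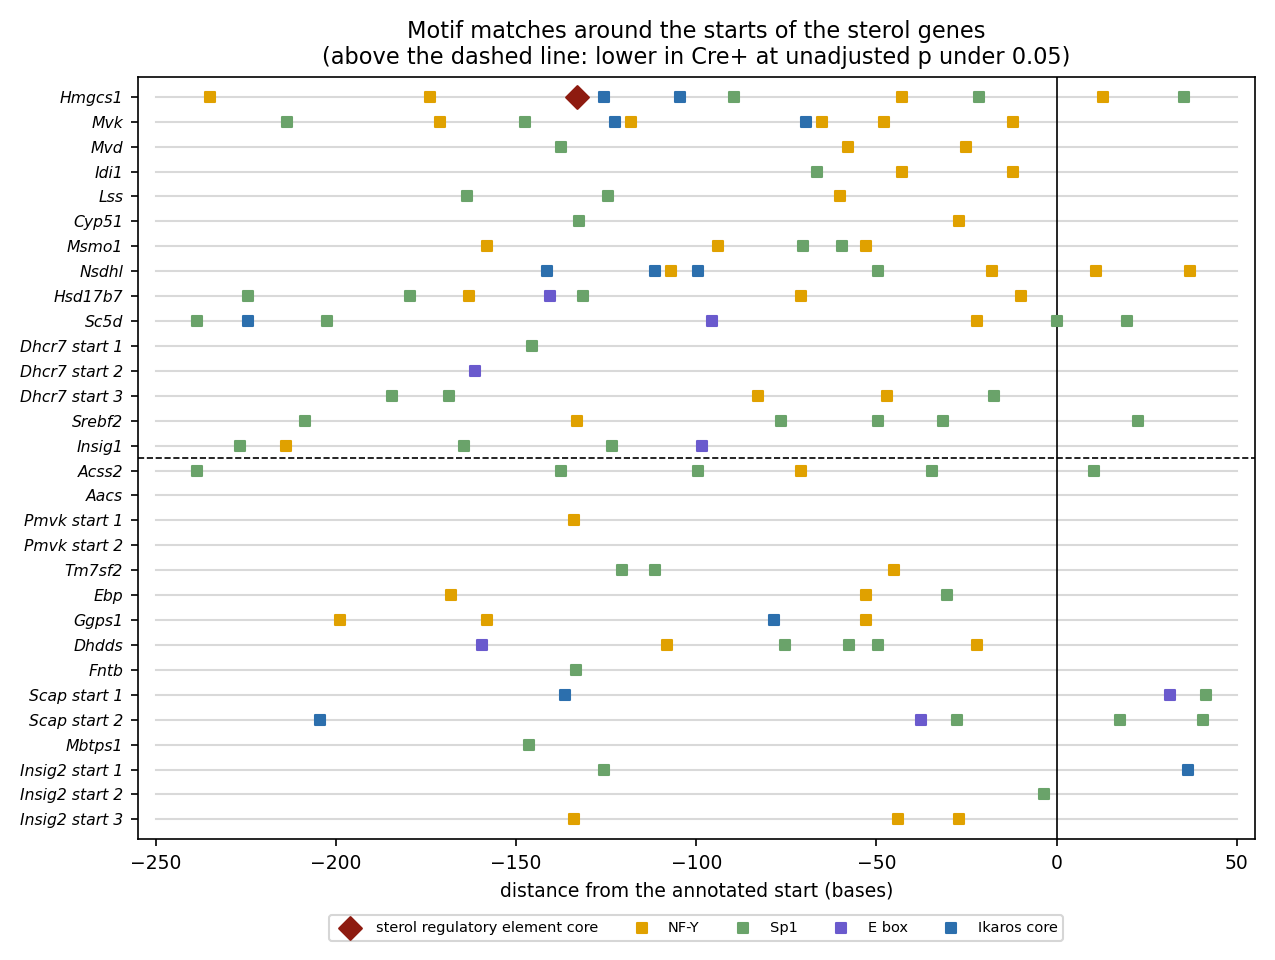
Motif matches along each annotated start of the 24 genes with an entry, with distance from the start in bases on the x axis and 1 row per start; squares and the diamond stand for the motifs in the legend. The 13 genes above the dashed line, lower in Cre+ at an unadjusted p under 0.05, each have an NF-Y match at 1 or more starts, and Hmgcs1 has the single sterol element core.

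Neighbouring lipid pathways were read from lists drawn up by function, also with earlier results of these data known. Of 7 measured genes of other sterol enzymes and partners, 3 were lower at an unadjusted p under 0.05 in limma, against 2.74% of all genes. In the restricted test 1 passed as lower, against 0.296%. That gene, Erg28, is known from yeast as a scaffold of the enzymes that act at carbon 4. It was at 11.30 and 11.29 in Cre+ mice and at 11.56 and 11.60 in Cre- mice, a difference of -0.29 (SE 0.04; limma, adjusted p = 0.0254 in the restricted test). Tmem97, a sterol-responsive membrane protein gene, differed by -0.15 (SE 0.04), with -0.11 (SE 0.06) in its other probe set, and Lbr, the lamin B receptor with sterol reductase activity, by -0.11 (SE 0.03).

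Sterol export genes lay on the other side. All 5 measured genes of export and LXR signalling had higher means, against 9152 of all 19938 genes, with a median of 0.21. At an unadjusted p under 0.05 in limma 2 were higher, against 4.12% of all genes. In the restricted test 1 passed as higher, against 0.953%. Abcg1, a cholesterol exporter induced by LXR, was at 11.30 and 11.17 in Cre+ mice and at 10.58 and 10.71 in Cre- mice. Its groups stood 0.46 apart, and the difference of 0.59 (SE 0.07, 1.51-fold higher) passed (limma, adjusted p = 0.00636). Abca1, the partner exporter, was at 6.89 and 6.63 in Cre+ mice and at 6.29 and 6.33 in Cre- mice, a difference of 0.46 (SE 0.12) that did not pass (limma, adjusted p = 0.13). Mylip, which encodes a ubiquitin ligase induced by LXR, differed by 0.21 (SE 0.09), or 0.11 without mouse 131. The rest of the list lay closer to the middle of all genes, Nr1h3 at 0.07 (SE 0.11) with overlapping groups and Lpcat3 at 0.06 (SE 0.05).

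Fatty acid synthesis is governed mainly by SREBP1. Of 11 measured genes 5 were lower at an unadjusted p under 0.05 in limma, against 2.74% of all genes. In the restricted test 0 passed, and the median was -0.09. The fatty acid synthase gene Fasn was at 10.99 and 10.95 in Cre+ mice and at 11.15 and 11.29 in Cre- mice, a difference of -0.25 (SE 0.06). Acaca, the acetyl-CoA carboxylase gene, differed by -0.27 (SE 0.08), or -0.18 without mouse 137 and -0.17 (SE 0.09) in its other probe set, and the ATP citrate lyase gene Acly by -0.14 (SE 0.04). Of 8 genes of sterol storage and traffic, 1 was higher at an unadjusted p under 0.05 in limma, against 4.12% of all genes. This was the sterol carrier gene Stard5 (0.25, SE 0.08), and none passed the restricted test. The lysosomal sterol transporter gene Npc1 differed by -0.23 (SE 0.09) and the endosomal carrier gene Stard3 by 0.21 (SE 0.09), but Npc1 by -0.12 without mouse 137 and Stard3 by 0.099 without mouse 129 and 0.31 without mouse 135.

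Each Cre+ mouse was also set against each Cre- mouse, which gives 4 pairs that share mice. The median over the 17 sterol enzymes was -0.40 for mouse 129 minus 131, -0.34 for 129 minus 137, -0.37 for 135 minus 131 and -0.29 for 135 minus 137. In mouse 135 all 17 were lower than in either Cre- mouse, and in mouse 129 all 17 were lower than in mouse 137 and 16 than in mouse 131. Between the 2 Cre+ mice the median of the 17 enzymes differed by -0.02 (129 minus 135), and between the 2 Cre- mice by 0.14 (131 minus 137). Mouse 131 had the highest value of the 4 for 13 of the 17 and mouse 137 for the other 4.

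**Figure D4:**
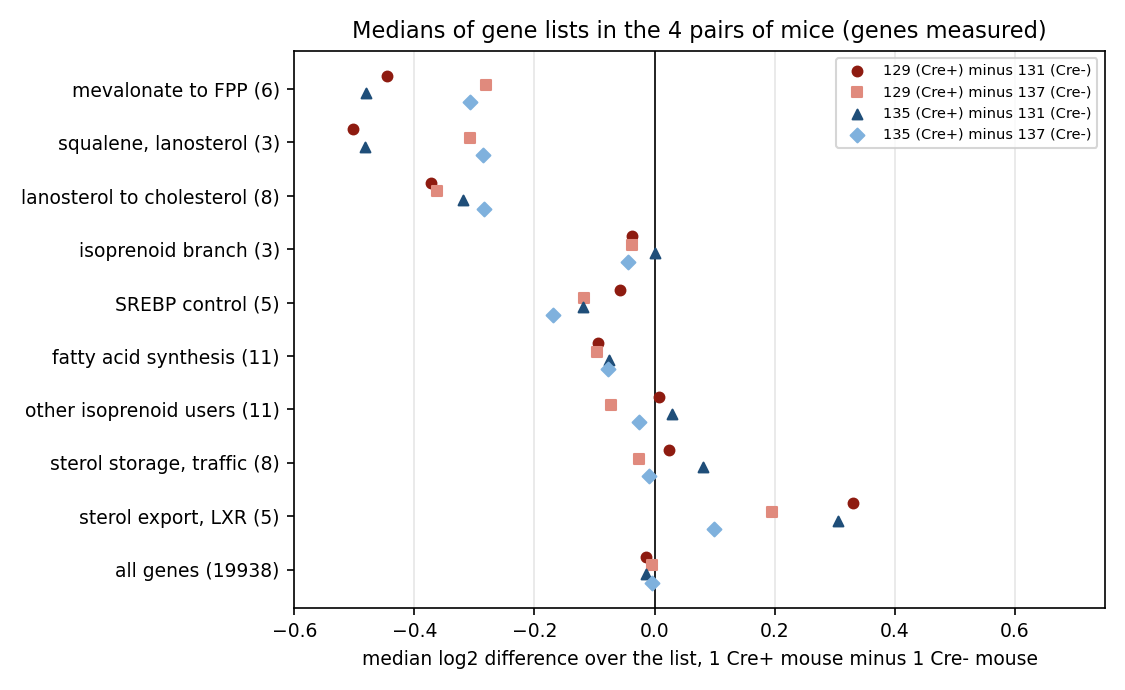
Median log2 difference over each list of genes, for each Cre+ mouse minus each Cre- mouse on the x axis, with the number of genes measured beside each list name; FPP is farnesyl diphosphate. The 3 sterol stages lie between -0.50 and -0.28 in the 4 pairs, export and LXR genes between 0.10 and 0.33, and all genes between -0.01 and 0 to 2 decimals.

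Set among all genes, 340 of the 19938 (1.71%) had a difference at or below the median of the 28. The median size of a difference over all genes was 0.06. Outside the 17 enzymes, the other 11 ran from Insig1 at -0.52 to Mbtps1 at 0.18, with a median of -0.06.

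**Figure D5:**
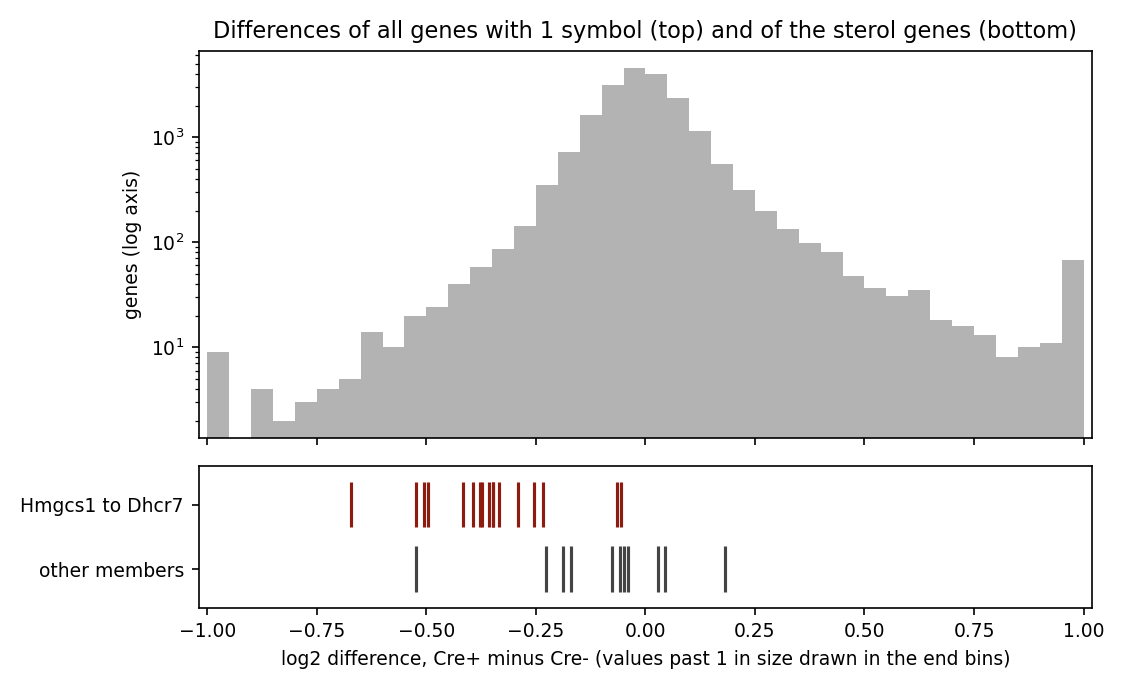
Histogram of the log2 differences, Cre+ minus Cre-, of 19938 genes on a log axis (top), with each of the 28 genes as a line below, the 17 enzymes from Hmgcs1 to Dhcr7 above the other 11. Of the 17 enzymes 15 lie below -0.2, with Ebp and Tm7sf2 in the bulk of the histogram, while the other 11 spread from -0.52 to 0.18.

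Markers of the sort moved between the groups as well. The mean of 6 T lineage genes was 11.62 and 11.48 in Cre+ mice and 11.41 and 11.41 in Cre- mice, and 3 of the 6 passed the restricted test as higher, Cd3e (0.25, SE 0.04), Cd3g (0.37, SE 0.05) and Rag1 (0.38, SE 0.07). The largest difference of the 6 had the other sign, Cd2 at -0.52 (SE 0.14), with both Cre+ mice below both Cre- mice and an adjusted p of 0.128 in the restricted limma test. Ptcra differed by 0.33 (SE 0.07) and Thy1 by 0.0055 (SE 0.04), and neither passed. The mean of the 5 genes that the DN4 gate is meant to leave out was 8.90 and 8.95 in Cre+ mice and 9.15 and 9.16 in Cre- mice. Of these, Cd8a differed by -0.61 (SE 0.21), Cd8b1 by -0.27 (SE 0.08), Cd44 by -0.42 (SE 0.10) and Il2ra by -0.38 (SE 0.23), and Cd4 by 0.54 (SE 0.11). None of the 5 passed the restricted test. Without 1 mouse, Il2ra was at -0.070 (mouse 131) to -0.68 (mouse 137), Cd8a at -0.35 (mouse 129) and Cd8b1 at -0.17 (mouse 137).

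Marker lists for 5 other kinds of cell were read as mean values per mouse. The 4 B cell genes averaged 6.60 and 6.64 in Cre+ mice and 6.67 and 6.92 in Cre- mice. Their signs were mixed, with Ms4a1 at -0.42 (SE 0.29), Cd79a at -0.35 (SE 0.12), Pax5 at -0.19 (SE 0.10) and Cd79b at 0.25 (SE 0.09). The 8 myeloid and dendritic cell genes averaged 6.44 and 6.63 in Cre+ mice and 6.36 and 6.52 in Cre- mice. Lyz2, the lysozyme gene of myeloid cells, was higher by 1.04 (SE 0.18) and passed the restricted test (limma, adjusted p = 0.0206), and no other gene of these 5 lists did. The rest of the myeloid and dendritic cell list went either way. Cd74 differed by -0.47 (SE 0.40), Itgax by -0.09 (SE 0.08) and H2-Ab1 by 0.22 (SE 0.26). Csf1r, Cd68, Adgre1 and Itgam lay between 0.01 and 0.04 with overlapping groups. The 5 natural killer cell genes averaged 6.52 and 6.47 in Cre+ mice and 6.54 and 6.52 in Cre- mice, the 5 thymic epithelium genes 6.72 and 6.72 in Cre+ mice and 6.88 and 6.77 in Cre- mice, and the 2 erythroid genes 6.39 and 6.34 in Cre+ mice and 6.48 and 6.19 in Cre- mice. Of the natural killer cell genes, Gzma was at 12.31 and 12.25 in Cre+ mice and at 12.48 and 12.46 in Cre- mice. Its difference of -0.19 (SE 0.03) did not pass the restricted test (limma, adjusted p = 0.0506). Ncr1, Klrb1c, Klrd1 and Prf1 lay between -0.05 and 0.10. Among the thymic epithelium genes, Epcam differed by -0.48 (SE 0.15). Krt5, Krt8, Psmb11 and Foxn1 lay between -0.09 and 0.13 with overlapping groups. RMA values have no 0, so absence cannot be read from them. The part of cell composition in the sterol gene differences was not tested.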

How the data were processed

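Per the labels' protocols, total RNA of sorted DN4 cells was biotin-labelled for Affymetrix mouse gene arrays, from input amounts not tied to mice. The deposited file holds log2 values for each probe set in the 4 mice. The submitters' processing notes name RMA as the authors' method. Its version, any filter and the genome build were not given in the sources used here. The log2 scale is read from the range, 3.14 to 14.4. Values were used as deposited, and 0 columns of other samples were set aside.

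Names come from the platform annotation, which gives exactly 1 gene symbol for 21789 of 35556 probe sets. RefSeq held 21698 of these, and 0 symbols changed. Groups come from the titles. The fit was limma 3.58.1 in R 4.3.3 (eBayes, trend by mean value) on all probe sets, with adjustment by Benjamini-Hochberg at 0.05. Degrees of freedom were 2 residual and 2.99 prior, or 6.12 prior in the restricted test. Every p given here also depends on the spread limma borrows from other probe sets. An exact two-sided permutation test of 2 against 2 mice, which borrows none, cannot go under 0.333.

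The genes, lists and the restricted test were chosen with earlier results of these data known and give no independent support to those results. All measured genes of the list are named, with the 3 of smallest p in each neighbouring list and the rest of the export list. The rule for printed promoters took Hmgcs1 and Lss, and Idi1 and Insig1 were added after their values were seen, as were the named markers. Alternatives were array centring, quantile or cyclic loess normalization, exclusion of probe sets below the 25th percentile or the median of mean values, eBayes with no trend or robust, array weights, the restricted test, averaging a gene's probe sets, leaving out each mouse and, added after seeing the data, sex as a block.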

Additional observations from a re-analysis of the deposited data

How the results depend on the processing

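The median difference of the 28 genes stayed between -0.33 and -0.24 when 1 mouse was left out (lowest without mouse 137, highest without mouse 131), against -0.27 with all 4, and between -0.27 and -0.26 under the other alternatives. The count of genes lower at an unadjusted p under 0.05 was 13 to 17 under all alternatives. The count past an adjusted p of 0.05 was 0 in each fit over all probe sets and above a dim filter, and 6 among probe sets with 1 gene symbol. Leaving out a mouse as well turned that last count into 1 (mouse 129), 5 (mouse 135 or 131) or 8 (mouse 137), and sex read from Xist as a block turned it into 9, both alternatives chosen after seeing the data. Over all probe sets the sex block gave 0 past an adjusted p of 0.05, 16 lower at an unadjusted p under 0.05 and the same median. The restricted test covers fewer probe sets by its construction, and its prior degrees of freedom were 6.12, against 2.99 over all probe sets. The 6 genes that passed had unadjusted limma p-values of 0.00101 to 0.00408 over all probe sets. In the restricted test these were 7.87e-05 to 0.000532, before any adjustment for the number of probe sets. A mouse left alone in its group was assumed to vary like the others. Of the values of the 28 genes under the alternatives, 383 kept direction and side of the threshold, 6 moved past it in the restricted test, and 3 changed sign. These were Insig2 (-0.087 to 0.18), Ggps1 (-0.018 to 0.075) and Fntb (-0.10 to 0.020), as ranges over leaving out each mouse. Outside the list, the alternatives were read for the 3 genes of smallest p in each neighbouring list. Of these, Rnf145 and Syvn1 changed sign without mouse 131 (-0.054 to 0.30 for Rnf145 and -0.10 to 0.21 for Syvn1). The other genes of those lists were not followed, among them Nr1h3, which was at -0.05 for mouse 135 minus 131. Of the markers, the T lineage genes, the genes the DN4 gate is meant to leave out, Lyz2 and Epcam were followed likewise. Among these, Thy1 changed sign, at -0.0027 after quantile normalization and over leaving out each mouse (-0.051 to 0.062). The remaining markers were not followed. One of them, H2-Ab1, was at -0.31 for mouse 129 minus 137 and at 0.76 for mouse 135 minus 131. The cause of the sign changes was not tested. The labels pair no mice, since no mouse number is shared between the groups, so no other block was fitted. Signal over background was not analysed, so folds describe RMA values and not transcript numbers.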
